A study of Mus musculus with 9 samples.

Results

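Anti-PD-1 antibody-nonresponsive tumors were compared with PBS-treated tumors of the same transplant model. The comparison takes 6 of the 9 sequenced tumors, 3 nonresponsive and 3 PBS-treated, each from 1 mouse. All mice were C57BL/6 and carried orthotopic Hepa1-6 tumors, that is, tumors of a mouse hepatoma line growing in the liver. They received intraperitoneal injections every 4 days, 5 in all, of anti-PD-1 antibody (clone RMP1-14) or of PBS. The nonresponsive tumors were the 3 largest of the antibody-treated ones, the responsive tumors the 3 smallest, and tumors of intermediate response were not sequenced. Membership therefore rests on treatment and tumor size and not on any transcript. A nonresponsive tumor had met the antibody and had been selected as large, and the effects of these cannot be told apart here. The tumors come from 1 cell line in an inbred strain, so that host genotype was shared. The question is what antibody treatment leaves in the transcriptome of a tumor that it did not shrink.

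PD-1 is an inhibitory receptor on activated T cells, and its ligand PD-L1 on tumor and myeloid cells damps T cell killing and cytokine release. Blocking antibodies lift this brake, and the released T cells act through perforin and granzymes and through interferon-gamma, which raises antigen presentation and the chemokines CXCL9 and CXCL10. In liver tumors, macrophages, stromal matrix and Wnt/β-catenin signaling in the tumor cells are known modifiers of that response.

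Gzmc, the joined locus of granzymes D to G and N, and 3 targets of Wnt signaling, Notum, Tbx3 and Sox9, fell in the nonresponsive tumors. Single genes of extracellular matrix (Fmod, Sfrp2, Ptn and Pi16), macrophages (Adgre1 and Fcgr1) and vascular endothelium (Sele and Selp) rose. Of 15 general macrophage loci 1 rose, and of 19 vascular endothelial loci 3, where 1.57% of all loci tested rose. The lists of T cell identity, interferon-response and antigen-presentation genes held no locus that passed the test. Whole tumors were sequenced in bulk, so that fewer cells of a type and less RNA per cell cannot be told apart in any of these results.

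Values are FPKM, fragments per kilobase of transcript corrected for the number of mapped fragments, and log2 values are log2(FPKM + 1), a scale that understates changes of low genes. A locus is 1 gene, or several genes that share an entry in any tumor with their FPKM summed. Of 48254 loci, limma tested the 12663 that reached FPKM 1 in no fewer than 3 of the 6. At an unadjusted p under 0.05, 409 loci (3.23% of those tested) differed, 199 (1.57%) higher and 210 (1.66%) lower in nonresponsive tumors. With no difference between the groups, this threshold would on average pass a share of 0.05 of the loci, more than the 3.23% found. After Benjamini-Hochberg adjustment 5 loci remained (0.0395%), each listed at 0 in all 3 tumors of a group. A gene is said here to rise or fall, to pass the test or to have a call where its unadjusted limma p was under 0.05, and a lost call means that this p was above 0.05 without the tumor named. Apart from those 5 loci, no call survived adjustment. Unless another value is given, the limma adjusted p of the genes named as rising or falling was 0.70. Loci on both sides of the threshold share that adjusted value. An exact permutation test of 3 tumors against 3 cannot go below p = 0.1. The 2 groups did not overlap at 409 loci that were higher (3.23%) and 615 that were lower (4.86%), together 1024 of 12663. With no difference between the groups, 3 tumors against 3 would on average separate at a share of 0.1 of the loci, more than found here. A call or a lack of overlap at a single locus is therefore a description. Over all loci the median log2 difference was -0.056, and 44.4% of loci were higher. When tumors were rescaled to the same summed FPKM of named genes, 244 loci rose and 143 fell, 63.0% higher against 48.7% as deposited. All gene lists below were chosen with earlier results of these data known. Their counts beside the shares over all loci are descriptions only.

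Tumors differed within groups. On the first principal component, 59.2% of the variance, PBS tumor 1 lay at -92.3 and nonresponsive tumor 1 at 90.3, with the other 4 tumors between -25.6 and 24.5. Nonresponsive tumor 3 was nearest to the PBS tumors in many of the genes below, and without it 1981 loci had p under 0.05 in place of 409. Hepa1-6 identity genes were present but uneven. Gpc3 had FPKM of 4.78, 7.41 and 7.67 in PBS and 5.43, 11.5 and 7.45 in nonresponsive tumors, while Afp, the fetal liver protein alpha-fetoprotein, had 20.4, 25.3 and 18.2 in PBS against 0.321, 9.18 and 56.5 in nonresponsive tumors. Afp was thus nearly lost in nonresponsive tumor 1 and highest in nonresponsive tumor 3 (adjusted p = 0.709). Hepatocyte genes such as Alb were detected in every tumor. Pancreatic acinar genes stood out in nonresponsive tumor 2, with Cpa1 at 52.6 against at most 0.114 in the PBS tumors. Skeletal muscle genes stood out in nonresponsive tumor 3, with Ckm at 54.8, and less so in PBS tumor 1, with 12.5. Their part in the results was not tested. FPKM give no read numbers. Relative depth was read from the commonest FPKM ratio to PBS tumor 1, among loci of 1 gene with FPKM under 0.3. It put the 6 tumors at 0.933 to 1.07 times the depth of PBS tumor 1. Only 10.1% to 14.8% of the compared loci lay at that ratio, so the estimate is rough.

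The clearest difference was in part of the granzyme cluster on chromosome 14. Gzmb, which lies near Gzmc in that cluster, overlapped between groups and is described below. Granzymes are serine proteases that killer lymphocytes release together with the pore former perforin. Granzymes D, E, F, G and N are related neighbors that shared an entry and form 1 locus here, so that their reads cannot be assigned to single genes. FPKM of this locus were 219, 316 and 166 in PBS tumors 1 to 3 and 42.4, 48.3 and 52.9 in nonresponsive tumors 1 to 3. The 3 nonresponsive tumors lay close together and below every PBS tumor. The means were 234 ± 76.1 and 47.9 ± 5.26 FPKM (SD, n = 3). The locus fell by 2.22 ± 0.27 on the log2 scale (SE, limma adjusted p = 0.370), and the call was kept without any 1 tumor. That adjusted p was the lowest among loci above 0 in all 6 tumors. Gzmc, the next gene of the cluster, had FPKM of 31.1, 46.3 and 33.2 in PBS and 8.58, 11.3 and 17.0 in nonresponsive tumors. Here too the groups did not overlap, and Gzmc fell by 1.54 ± 0.29 (call kept without any 1 tumor). In the responsive tumors the joined locus stood at 13.9, 312 and 458 and Gzmc at 3.63, 54.8 and 63.9, low in responsive tumor 1 alone.

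The promoter windows below, 200 bases before the annotated start of each gene (RefSeq, GRCm38.p6, all on the minus strand), are shown for Gzmc and for the members of the joined locus that resemble it there. Capitals mark TGTGGT, the core word of RUNX factor sites, and its reverse complement ACCACA.
Gzmc, chr14:56234658-56234857: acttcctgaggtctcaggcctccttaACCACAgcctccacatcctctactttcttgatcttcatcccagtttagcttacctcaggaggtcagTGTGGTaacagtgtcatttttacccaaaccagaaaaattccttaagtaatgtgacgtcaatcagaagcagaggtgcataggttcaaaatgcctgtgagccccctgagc
Gzmd, chr14:56132594-56132793: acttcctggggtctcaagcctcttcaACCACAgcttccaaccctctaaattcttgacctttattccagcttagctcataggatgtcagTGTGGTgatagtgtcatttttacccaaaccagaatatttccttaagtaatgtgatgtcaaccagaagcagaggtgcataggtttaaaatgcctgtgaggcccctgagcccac
Gzme, chr14:56120626-56120825: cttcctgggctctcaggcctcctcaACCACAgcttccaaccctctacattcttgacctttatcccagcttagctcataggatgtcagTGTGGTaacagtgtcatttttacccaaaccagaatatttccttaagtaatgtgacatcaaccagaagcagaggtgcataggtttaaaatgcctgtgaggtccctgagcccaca
Gzmf, chr14:56211408-56211607: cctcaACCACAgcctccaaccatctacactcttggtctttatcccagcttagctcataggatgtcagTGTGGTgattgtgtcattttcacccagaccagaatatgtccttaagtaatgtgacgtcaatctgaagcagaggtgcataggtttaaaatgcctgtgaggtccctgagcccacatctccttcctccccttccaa
Gzmg, chr14:56159580-56159779: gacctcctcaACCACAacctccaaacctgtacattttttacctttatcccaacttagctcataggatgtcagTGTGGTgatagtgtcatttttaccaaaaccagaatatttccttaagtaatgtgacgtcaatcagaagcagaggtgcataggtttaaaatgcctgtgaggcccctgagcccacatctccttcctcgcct

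Each of these 5 windows held the word once on each strand, in the same order. The best ungapped alignment of any pair matched at 64.8% to 95.0% of positions, and the pairs among Gzmd to Gzmg at 90.8% to 95.0%. The window of Gzmn, the other gene of the joined locus, matched these 5 at 34.3% to 38.1%, close to its 36.9% with Gzmb and 36.5% with Prf1. Over windows of the same length, 11.2% of the 32851 promoters of the table held the word on either strand and 0.304% held it on each. It was present in the windows of Gzmb and of the perforin gene Prf1, and these letters were not in the window of Gzmn. A match describes letters and not a bound site.

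The other genes of the killing machinery did not pass the test. Prf1 had FPKM of 6.99, 13.3 and 6.70 in PBS and 2.39, 5.56 and 5.76 in nonresponsive tumors. All nonresponsive tumors were below all PBS tumors, with a difference of -0.85 ± 0.38 that missed the threshold (adjusted p = 0.700). Gzmb, the granzyme most used as a marker of killer cells, had 14.1, 44.8 and 26.2 in PBS and 10.5, 21.1 and 35.5 in nonresponsive tumors, and the groups overlapped (adjusted p = 0.786). Gzma was at 3.23, 12.5 and 13.5 in PBS against 9.60, 11.2 and 21.7 in nonresponsive tumors, highest in nonresponsive tumor 3 (adjusted p = 0.702). Gzmk differed by -0.06 ± 0.36 (adjusted p = 0.948), and the locus that joins Gzmm with Cdc34 by -0.08 ± 0.21 (adjusted p = 0.880). Within the wider list of cytotoxic lymphocyte and NK cell genes, 1 of 19 tested loci fell (Gzmc), where 1.66% of all loci tested fell, and 0 rose, with a median of -0.00. Its most abundant loci were Gzmb, the granule protein gene Nkg7 (-0.00 ± 0.43, adjusted p = 0.998) and the chemokine gene Ccl5, joined with Heatr9 (0.41 ± 0.56, adjusted p = 0.752).

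**Figure D1:**
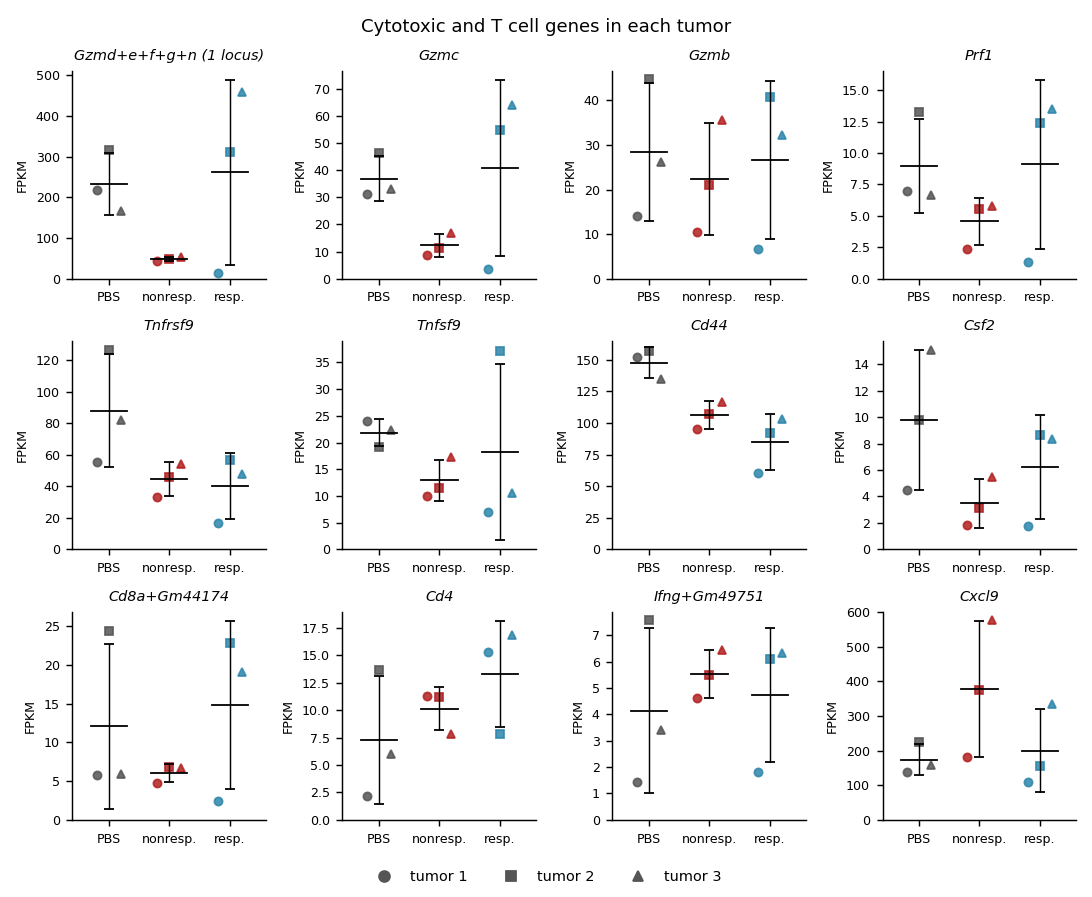
FPKM of 12 cytotoxic and T cell loci on linear axes, 1 panel a locus, in the PBS, nonresponsive and responsive tumors. Points are single tumors (circle 1, square 2, triangle 3), wide lines the group means and error bars the SD (n = 3, lower bars stop at 0). The joined granzyme locus and Gzmc are lower in all 3 nonresponsive tumors than in any PBS tumor, while Gzmb, Cd8a, Cd4 and Ifng overlap between these groups.

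T cell identity genes did not pass the test. Of 22 tested loci of the T cell list 0 rose and 0 fell, with a median log2 difference of 0.21. Without PBS tumor 2, 4 of them rose. Cd3e, a subunit of the T cell receptor complex, had FPKM of 7.79, 22.9 and 17.5 in PBS and 18.8, 17.3 and 15.4 in nonresponsive tumors, lowest in PBS tumor 1 and otherwise overlapping. Cd8a, the co-receptor of killer T cells (joined with Gm44174), was at 5.81, 24.4 and 5.96 in PBS against 4.70, 6.77 and 6.64 in nonresponsive tumors, with PBS tumor 2 far above the other 5. Cd8b1 differed by -0.10 ± 0.38 (adjusted p = 0.911) and the helper co-receptor Cd4 by 0.67 ± 0.55 (adjusted p = 0.700). The most abundant loci of the list, Thy1, the T cell receptor beta constant locus and Tcf7, differed by 0.10, 0.35 and -1.45 (adjusted p = 0.881, 0.728 and 0.700). Tcf7, which encodes the stem-like T cell factor TCF-1 and is also a Wnt target, had FPKM of 158, 80.7 and 135 in PBS and 7.40, 80.5 and 126 in nonresponsive tumors. Its level was low in nonresponsive tumor 1 and in the PBS range in tumor 3, and in the PBS tumors its FPKM exceeded that of Cd3e in every tumor.

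The genes of PD-1 and its ligand did not pass the test. Pdcd1, the antibody target, had FPKM of 1.44, 8.65 and 3.18 in PBS and 4.97, 4.95 and 3.75 in nonresponsive tumors, with the nonresponsive values inside the PBS range. Cd274, which encodes PD-L1 (joined with Ric1), was at 34.5, 100.4 and 105 in PBS against 169.8, 76.8 and 76.5 in nonresponsive tumors, lowest in PBS tumor 1 and highest in nonresponsive tumor 1. Their limma adjusted p-values were 0.818 and 0.722. In the checkpoint list 2 of 14 loci rose, Lgals9 and Nectin2, and 0 fell, where 1.57% of all loci tested rose. Nectin2 was listed at 0 in every PBS tumor, which may be a missing estimate. Lgals9, encoding the TIM-3 ligand galectin-9, was at 95.2, 98.6 and 124 in PBS and 142, 142 and 155 in nonresponsive tumors. It rose by 0.47 ± 0.18 (call lost without PBS tumor 1 or 2 or nonresponsive tumor 1, 2 or 3). The most abundant loci of this list beside Lgals9 were those that join Lag3 with Ptms and Tigit with Gm49734 and Gm49735, which differed by -0.04 and -1.46 (adjusted p = 0.948 and 0.700).

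The receptor and the ligand of 4-1BB costimulation both fell. Tnfrsf9 encodes the 4-1BB receptor of activated T cells and Tnfsf9 its ligand. Tnfrsf9 had FPKM of 55.7, 127 and 82.0 in PBS and 33.0, 46.2 and 54.3 in nonresponsive tumors, and Tnfsf9 had 24.1, 19.1 and 22.4 in PBS against 10.1, 11.5 and 17.3 in nonresponsive tumors. For both genes every nonresponsive tumor was below every PBS tumor. Tnfrsf9 fell by 0.92 ± 0.35 and Tnfsf9 by 0.74 ± 0.24. The Tnfrsf9 call was lost without PBS tumor 2 or 3 or nonresponsive tumor 1 or 2, and the Tnfsf9 call was lost without PBS tumor 1 or 3 or nonresponsive tumor 1 or 2. Cd44, the hyaluronan receptor of activated T cells and many tumor cells, was at 152, 157 and 134 in PBS against 95.1, 107 and 117 in nonresponsive tumors, and fell by 0.47 ± 0.18 (call lost without PBS tumor 1, 2 or 3 or nonresponsive tumor 1 or 2). Tnfrsf9 and Cd44 were the 2 loci of 11 that fell in the list of regulatory T cell and TNF receptor genes, where 0 rose. Over all loci tested, 1.66% fell. Among the 13 TNF superfamily ligands tested, a list drawn up after these values were known, Tnfsf9 was the only one that passed. Csf2, the growth factor GM-CSF of activated lymphocytes, had 4.47, 9.77 and 15.1 in PBS and 1.82, 3.09 and 5.49 in nonresponsive tumors, with overlap, and fell by 1.22 ± 0.49 (call lost without PBS tumor 2 or 3 or nonresponsive tumor 1 or 2). Ccl22, a chemokine that attracts regulatory T cells, was at 9.25, 12.6 and 12.6 in PBS against 8.56, 6.98 and 5.98 in nonresponsive tumors, without overlap, and fell by 0.61 ± 0.21 (call lost without PBS tumor 2 or 3 or nonresponsive tumor 2 or 3).

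Interferon-gamma output and its targets did not pass the test. Ifng (joined with Gm49751) had FPKM of 1.44, 7.56 and 3.39 in PBS and 4.62, 5.50 and 6.43 in nonresponsive tumors, and the nonresponsive values lay inside the PBS range. Cxcl9, a chemokine induced by interferon-gamma, was at 139.7, 225 and 158 in PBS against 182, 376 and 577 in nonresponsive tumors, above all PBS tumors in nonresponsive tumors 2 and 3 and between them in tumor 1 (0.99 ± 0.46, adjusted p = 0.700). Cxcl10, joined with Scarb2, differed by 0.28 ± 0.34 (adjusted p = 0.732). Of 16 loci induced by interferon-gamma, 13 were higher in nonresponsive tumors, against 44.4% of all loci tested, and 3 lower. Of the 16, 0 passed, with a median of 0.25. The guanylate-binding protein locus of Gbp2, Gbp2b and Gbp3 differed by 0.44 ± 0.32 (adjusted p = 0.700). Of 27 loci of the type I interferon list 0 passed (median 0.07). The antigen-presentation lists gave 0 of 15 for MHC class I and 0 of 12 for class II, with medians of 0.19 and 0.48. For class I, the light chain locus of B2m and Trim69 differed by 0.19 ± 0.36 (adjusted p = 0.817). The invariant chain Cd74 stood for class II with 0.47 ± 0.35 (adjusted p = 0.700).

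The list means of B cell and plasma cell genes were lowest in PBS tumor 1, and neither list held a call. Single genes differed from this order. Cd79a had FPKM of 0.422, 23.6 and 13.1 in PBS and 0, 7.91 and 6.73 in nonresponsive tumors (adjusted p = 0.756). Of 13 B cell loci 0 passed (median 0.27), and of 8 loci of plasma cells and immunoglobulin constant regions 0 (median 0.87). The joined kappa constant locus Igkc had FPKM of 133, 23110.5 and 11026 in PBS and 18943, 7629.9 and 8604 in nonresponsive tumors, so that PBS tumor 1 stood far below the other 5. Some single variable segments passed. Ighv5-16 was at 0.953, 25.1 and 43.5 in PBS and 245, 70.3 and 106 in nonresponsive tumors, without overlap (3.23 ± 1.22, call lost without nonresponsive tumor 1, 2 or 3). Igkv4-53 was at 4.86, 51.2 and 44.7 in PBS against 131, 103 and 184 in nonresponsive tumors, again without overlap (2.50 ± 0.86, call lost without nonresponsive tumor 1, 2 or 3). Ighv11-2, listed at 0 in PBS tumor 1, was at 0, 5.76 and 4.87 in PBS against 32.6, 209 and 12.2 in nonresponsive tumors (3.73 ± 1.20, call kept without any 1 tumor). Variable segments resemble each other, so that the assignment of reads among them is uncertain.

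Among Wnt target genes, 3 fell, and a long non-coding neighbor with them. Notum, a secreted enzyme that inactivates Wnt ligands and is itself induced by β-catenin, had FPKM of 55.3, 68.1 and 39.5 in PBS and 3.38, 13.1 and 35.2 in nonresponsive tumors. Every nonresponsive tumor was below every PBS tumor, but tumor 3 by little. Notum fell by 2.05 ± 0.75 (call lost without PBS tumor 1, 2 or 3 or nonresponsive tumor 2). Its antisense neighbor Notumos was at 11.4, 10.8 and 7.89 in PBS against 0.334, 2.37 and 7.77 in nonresponsive tumors and fell by 1.68 ± 0.67 (call lost without PBS tumor 1, 2 or 3 or nonresponsive tumor 1 or 2). The counting is not stated to use strand, so that reads of Notum and Notumos may not be separable. Tbx3, a T-box transcription factor induced by β-catenin in liver tumors, had 17.6, 16.5 and 14.2 in PBS and 5.55, 5.80 and 10.2 in nonresponsive tumors, without overlap. It fell by 1.10 ± 0.26 and kept its call without any 1 tumor. Sox9, a progenitor and bile duct transcription factor, was at 7.52, 4.82 and 4.56 in PBS against 2.2, 2.54 and 4.37 in nonresponsive tumors and fell by 0.73 ± 0.29 (call lost without PBS tumor 1, 2 or 3 or nonresponsive tumor 1 or 2).

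Of the remaining 16 Wnt target loci 13 were lower and 3 higher in nonresponsive tumors, and 0 passed. Of all loci tested, 44.4% were higher. Axin2, a feedback inhibitor of the pathway and its most used readout, had FPKM of 77.3, 45.5 and 46.0 in PBS and 2.34, 29.0 and 57.1 in nonresponsive tumors. It was very low in nonresponsive tumor 1, reduced in tumor 2 and inside the PBS range in tumor 3 (adjusted p = 0.700). The transcription factor Sp5 was at 109.9, 51.4 and 70.9 in PBS against 0.682, 27.5 and 53.8 in nonresponsive tumors (adjusted p = 0.700). Lgr5, the receptor for Wnt-enhancing R-spondins, was at 50.9, 26.1 and 27.3 in PBS against 2.1, 20.4 and 26.2 in nonresponsive tumors (adjusted p = 0.700). These genes repeated the order of Axin2, lowest in nonresponsive tumor 1 and in the PBS range in tumor 3. Bmp4 did not overlap between groups, with 23.3, 17.7 and 17.1 in PBS against 1.77, 7.57 and 15.3 in nonresponsive tumors (adjusted p = 0.700), and Ccnd1 and Myc differed by -1.04 and -0.86 (adjusted p = 0.700 and 0.700). Of 19 Wnt target loci tested, 3 fell, where 1.66% of all loci tested fell, and 0 rose, with a median of -1.04. The list was drawn up after these values were known and is a description only. Without nonresponsive tumor 3, 9 fell and 1 rose. Only 1 fell when any single PBS tumor was left out, and 2 when nonresponsive tumor 1 or 2 was. The 3 higher loci were Nkd2, another feedback inhibitor of the pathway, by 0.93, and Glul and Lect2. Glul and Lect2, liver-zonation targets of β-catenin that normal hepatocytes also express, differed by 0.23 and 0.53 (adjusted p = 0.794 and 0.700). In the responsive tumors Notum was at 6.85, 174 and 17.5 and Axin2 at 2.42, 83.3 and 19.5, low in responsive tumor 1 and highest in responsive tumor 2.

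The other large decreases were in genes of varied roles. Iapp, the islet peptide amylin, had FPKM of 25.2, 32.0 and 27.0 in PBS and 0.509, 3.16 and 11.7 in nonresponsive tumors. The PBS tumors were tightly grouped and the nonresponsive tumors all lower, from near 0 in tumor 1 to the highest value in tumor 3. Iapp fell by 2.75 ± 0.74 (call kept without any 1 tumor). Ramp3, a partner protein of the calcitonin-family receptors to which amylin and adrenomedullin bind, was at 77.0, 39.7 and 19.5 in PBS against 6.86, 4.90 and 11.5 in nonresponsive tumors. Ramp3 was likewise lower in each nonresponsive tumor and fell by 2.27 ± 0.54 (call kept without any 1 tumor). Bcam, an adhesion receptor for laminin (joined with Gm45114), was at 116, 101 and 68.1 in PBS against 4.13, 22.1 and 58.6 in nonresponsive tumors and fell by 2.29 ± 0.87 (call lost without PBS tumor 1, 2 or 3 or nonresponsive tumor 2). Imp4, a protein of ribosomal RNA processing, was at 36.2, 24.4 and 40.2 in PBS against 7.05, 9.76 and 12 in nonresponsive tumors, with 6.41, 10.3 and 8.32 in the responsive tumors. It fell by 1.70 ± 0.28 (call kept without any 1 tumor). All 4 of these genes were without overlap between groups. Catsperd, known as a sperm calcium channel subunit, was low throughout at 3.52, 3.34 and 3.18 in PBS against 0.0718, 0.569 and 0.876 in nonresponsive tumors and fell by 1.57 ± 0.27. C130013H08Rik was at 3.84, 13.9 and 12.9 in PBS against 1.97, 2.57 and 3.11 in nonresponsive tumors (-1.51 ± 0.47, call lost without PBS tumor 2 or 3 or nonresponsive tumor 1).

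Fetal liver and tumor genes moved in both directions. Of 14 loci 3 fell (Sox9, Igf2bp3 and Cd24a) and 1 rose (Igf2), with a median of -0.44. Over all loci tested, 1.66% fell and 1.57% rose. Igf2, the fetal insulin-like growth factor (joined with Gm49394), was low everywhere, with FPKM of 1.12, 0.805 and 1.92 in PBS and 5.47, 5.20 and 3.84 in nonresponsive tumors. All nonresponsive tumors were above all PBS tumors, and Igf2 rose by 1.37 ± 0.26 (call kept without any 1 tumor). Igf2bp3, an RNA-binding protein of fetal tissue, was at 3.45, 2.33 and 2.90 in PBS against 0.975, 2.00 and 0 in nonresponsive tumors and fell by 1.09 ± 0.43 (call lost without PBS tumor 1, 2 or 3 or nonresponsive tumor 1 or 3). Cd24a, a surface protein of progenitor and tumor cells, was at 97.9, 102 and 97.0 in PBS against 77.4, 76.8 and 70.8 in nonresponsive tumors and fell by 0.40 ± 0.15 (call lost without PBS tumor 1, 2 or 3 or nonresponsive tumor 2 or 3). The trefoil factor locus of Tff2 and Tff3 had the largest difference of the list, with 589, 251 and 324 in PBS and 3.47, 91.1 and 229 in nonresponsive tumors. The groups did not overlap, but the difference of -3.0 ± 1.43 missed the threshold (adjusted p = 0.700). The locus of Krt15 and Krt19 was at 212, 59.0 and 136 in PBS against 1.47, 69.0 and 194 in nonresponsive tumors, nearly lost in nonresponsive tumor 1 alone (adjusted p = 0.700).

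Proliferation genes did not pass the test. All 28 loci of the proliferation list were lower in the mean of nonresponsive tumors, with a median of -0.62, and 0 passed. Of all loci tested, 44.4% were higher. The mean log2 value over the list was 5.44, 4.66 and 5.21 in PBS tumors and 3.16, 4.79 and 5.49 in nonresponsive tumors, so that nonresponsive tumor 1 was low and tumor 3 above every PBS tumor. Mki67, the marker of cycling cells, was likewise lowest in nonresponsive tumor 1, with 32.5, 20.3 and 24.4 in PBS against 6.70, 21.6 and 31.7 in nonresponsive tumors (adjusted p = 0.708). Cdk1, the mitotic kinase, was at 201, 92.2 and 166 in PBS against 23.1, 88.2 and 208 in nonresponsive tumors (adjusted p = 0.700). The joined loci of Mcm6 and Birc5 differed by -0.46 and -0.05 (adjusted p = 0.705 and 0.921).

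**Figure D2:**
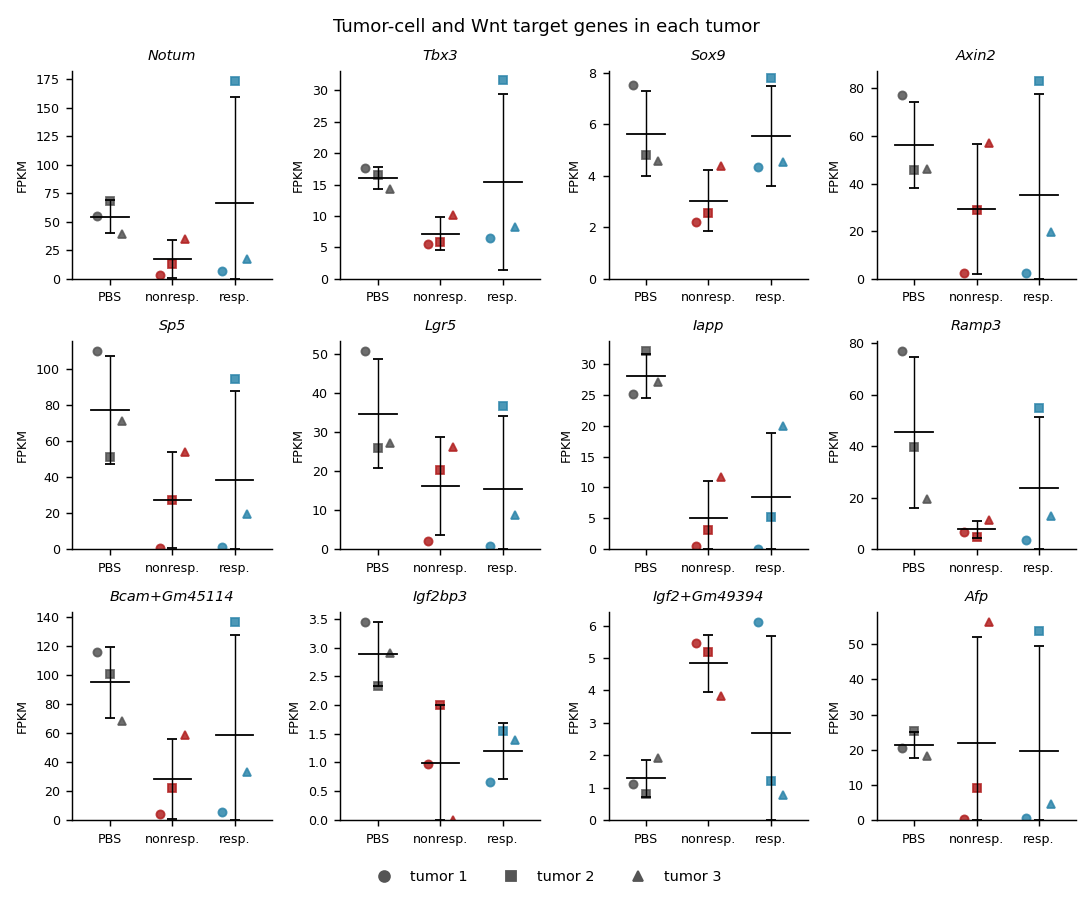
FPKM of 12 tumor-cell and Wnt target loci on linear axes, 1 panel a locus, in the PBS, nonresponsive and responsive tumors. Points are single tumors (circle 1, square 2, triangle 3), wide lines the group means and error bars the SD (n = 3, lower bars stop at 0). Axin2, Sp5 and Lgr5 are lowest in nonresponsive tumor 1 and in the PBS range in tumor 3, whereas Tbx3 and Ramp3 are lower in all 3 nonresponsive tumors.

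Increases were ranked among loci that were detected in every compared tumor and passed the test without overlap between groups. Extracellular matrix genes were 5 of the 10 largest in this ranking (Fmod, Ptn, Sfrp2, Clec3b and Ogn). Some loci outside the ranking rose by more than Ogn, among them Nectin2 and Chil3. Fmod, the collagen-binding proteoglycan fibromodulin, had FPKM of 1.75, 3.67 and 6.58 in PBS and 38.0, 45.5 and 10.6 in nonresponsive tumors. Ptn, the heparin-binding growth factor pleiotrophin, was at 1.08, 1.44 and 1.36 in PBS against 11.4, 30.0 and 4.57 in nonresponsive tumors. Sfrp2, a secreted frizzled-related modulator of Wnt signaling made by stromal cells, was at 4.91, 5.15 and 7.85 in PBS against 51.2, 69.4 and 11.6 in nonresponsive tumors. For all 3 genes the groups did not overlap, with nonresponsive tumors 1 and 2 far above and tumor 3 nearest to PBS. Fmod rose by 2.58 ± 0.63, Ptn by 2.49 ± 0.60 and Sfrp2 by 2.39 ± 0.66, and all 3 kept their calls without any 1 tumor. Sfrp1, the related modulator, was at 10.8, 34.3 and 18.2 in PBS against 87.3, 105 and 29.0 in nonresponsive tumors, with overlap, and rose by 1.71 ± 0.61 (call lost without PBS tumor 1 or 3 or nonresponsive tumor 1 or 2).

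A second set of matrix and stromal genes rose as well, and where in the tumor they were expressed was not tested. Pi16, a marker of adventitial fibroblasts, had FPKM of 1.58, 1.66 and 2.08 in PBS and 6.15, 7.30 and 3.80 in nonresponsive tumors. Clec3b, the plasminogen-binding protein tetranectin, was at 2.16, 0.0708 and 1.04 in PBS against 3.27, 19.1 and 7.26 in nonresponsive tumors, and Fbln1, the elastic-fiber protein fibulin-1, at 12.3, 15.4 and 12.5 in PBS against 20.5, 24.8 and 20.7 in nonresponsive tumors. Each was higher in every nonresponsive tumor than in any PBS tumor. Pi16 rose by 1.25 ± 0.26, Clec3b by 2.23 ± 0.66 and Fbln1 by 0.68 ± 0.18, and these calls held without any 1 tumor. Ogn, the small proteoglycan osteoglycin, was at 1.31, 0.354 and 1.18 in PBS against 2.61, 15.7 and 3.58 in nonresponsive tumors, highest in nonresponsive tumor 2 (1.78 ± 0.61, call lost without PBS tumor 2 or 3). Dpt, the matrix protein dermatopontin, was at 8.04, 13.1 and 9.10 in PBS against 21.6, 63.0 and 17.2 in nonresponsive tumors (1.45 ± 0.50, call lost without PBS tumor 1 or 3). Igf1, the insulin-like growth factor of stroma, macrophages and liver, was at 4.29, 8.93 and 7.69 in PBS against 28.5, 22.9 and 9.13 in nonresponsive tumors, the 2 groups nearly touching at nonresponsive tumor 3 (1.32 ± 0.47, call lost without PBS tumor 1 or 3 or nonresponsive tumor 1 or 2).

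The other 9 members that rose were the collagens Col8a2 and Col11a1, the collagen-binding integrin Itga11, the integrin-like Itgbl1, the elastic-fiber genes Eln, Fbln5 and Loxl1, the proteoglycan Podn and the growth factor binding protein Igfbp6. Col11a1, a fibrillar collagen of activated stroma, had FPKM of 0.647, 2.99 and 3.29 in PBS and 10.5, 16.1 and 3.39 in nonresponsive tumors and rose by 1.65 ± 0.61 (call lost without PBS tumor 1 or 2 or nonresponsive tumor 1 or 2). Eln, the elastin gene, was at 7.68, 10.4 and 10.8 in PBS against 19.9, 28.7 and 12.7 in nonresponsive tumors and rose by 0.95 ± 0.32 (call lost without PBS tumor 1 or nonresponsive tumor 1 or 2). In both genes nonresponsive tumor 3 lay just above the highest PBS tumor. Log2 increases of the other 7 ran from 0.79 (Podn) to 1.69 (Igfbp6), and each lost its call without nonresponsive tumor 2, 6 of them also without a PBS tumor. Of 33 loci tested in the matrix family 19 rose, where 1.57% of all loci tested rose, and 0 fell, with a median of 1.23. This family was assembled after these values were known, so the count is a description. Without any 1 tumor the number that rose ran from 8 (nonresponsive tumor 2 left out) to 23 (tumor 3 left out), and 6 of the 19 kept their call throughout. The most abundant members, Dcn, Bgn and Lum, did not pass, with -0.36, 0.67 and 1.73 (adjusted p = 0.706, 0.700 and 0.700).

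The general fibroblast and stellate cell list gave a weaker picture. Of 27 loci 1 rose (Lrat), where 1.57% of all loci tested rose, and 0 fell. At any p 24 were higher, against 44.4% of all loci tested, with a median of 0.44. Without nonresponsive tumor 3, 5 rose. Lrat, the retinol-esterifying enzyme of hepatic stellate cells, was at 0.0884, 0.828 and 1.48 in PBS and 2.88, 2.12 and 1.90 in nonresponsive tumors, without overlap (0.94 ± 0.35, call lost without PBS tumor 1 or 2 or nonresponsive tumor 1, 2 or 3). Col3a1, the main reticular collagen, was at 392, 1056 and 538 in PBS against 1400.3, 1396 and 649 in nonresponsive tumors, with overlap (adjusted p = 0.700). Sparc, a collagen-binding protein of stroma, differed by 0.59 ± 0.44 (adjusted p = 0.700). Among 14 loci of matrix metalloproteinases and their inhibitors 0 passed. The abundant ones, Mmp14, Mmp12 and the inhibitor Timp1, differed by 0.23, -0.37 and -0.03 (adjusted p = 0.789, 0.719 and 0.970).

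**Figure D3:**
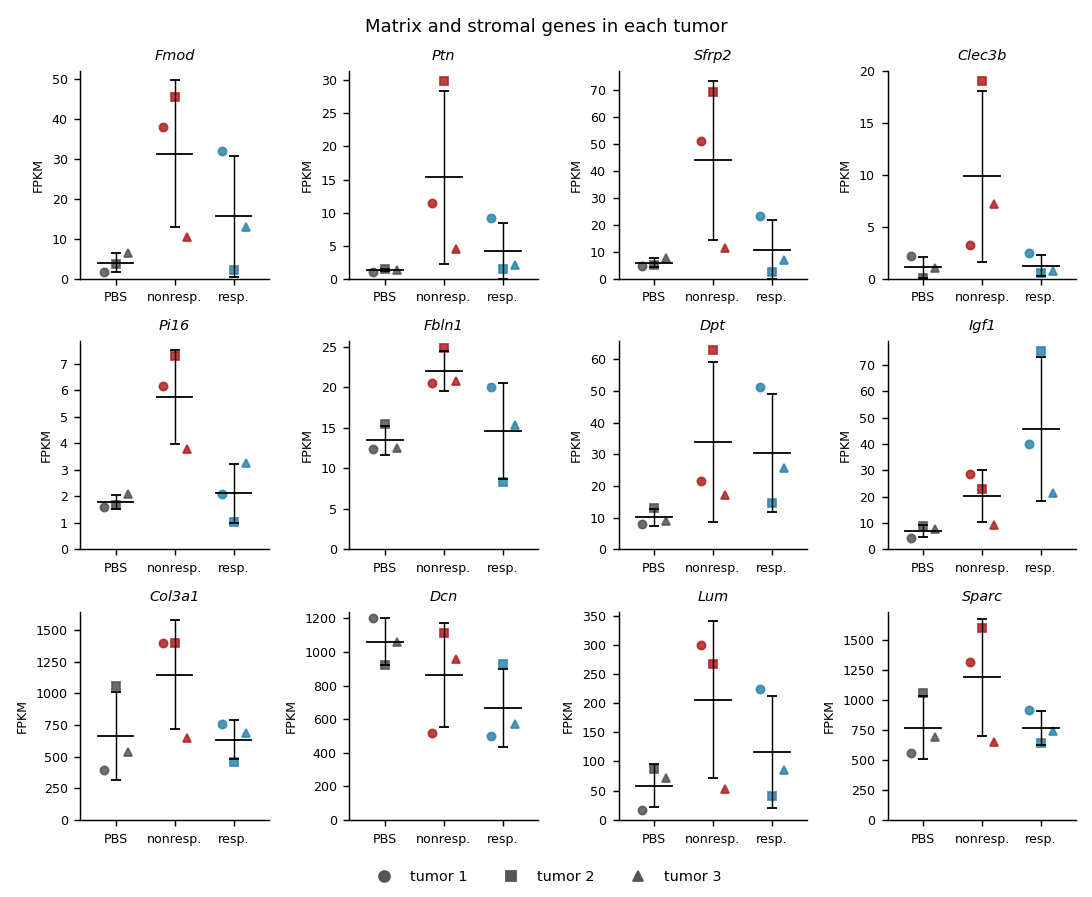
FPKM of 12 matrix and stromal genes on linear axes, 1 panel a gene, in the PBS, nonresponsive and responsive tumors. Points are single tumors (circle 1, square 2, triangle 3), wide lines the group means and error bars the SD (n = 3, lower bars stop at 0). Fmod, Ptn and Sfrp2 are highest in nonresponsive tumors 1 and 2, Pi16 and Fbln1 are higher in all 3 nonresponsive tumors than in any PBS tumor, and Col3a1, Dcn, Lum and Sparc overlap between these groups.

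Macrophage genes were higher in the mean of the nonresponsive tumors, but 1 of their list passed. Adgre1, which encodes the macrophage marker F4/80, had FPKM of 15.2, 37.0 and 30.2 in PBS and 77.7, 95.8 and 33.4 in nonresponsive tumors. Nonresponsive tumors 1 and 2 were above all PBS tumors and tumor 3 was inside their range. Adgre1 rose by 1.26 ± 0.50 (call lost without PBS tumor 1 or 3 or nonresponsive tumor 1 or 2). It was the 1 of 15 general macrophage loci that rose, where 1.57% of all loci tested rose. All 15 were higher at any p, against 44.4% of all loci tested, with a median of 0.76. Without nonresponsive tumor 3, 8 of them rose, without PBS tumor 2, 4 did, and without any other single tumor 0 did. The mean log2 value over the list was 6.20, 7.49 and 7.29 in PBS and 8.24, 8.07 and 7.16 in nonresponsive tumors, so that PBS tumor 1 was lowest and nonresponsive tumor 3 below PBS tumors 2 and 3. The most abundant loci were lysozyme (Lyz1 and Lyz2, 1.23 ± 0.68, adjusted p = 0.700), the protease Ctss (0.87 ± 0.50, adjusted p = 0.700) and complement C1q (C1qb and C1qc, 0.76 ± 0.32, adjusted p = 0.700). The C1q locus had FPKM of 341, 639 and 522 in PBS against 869, 972 and 660.3 in nonresponsive tumors, without overlap.

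Activating Fc receptors, which bind antibody on target cells, were among the genes that rose. Fcgr1, the high-affinity receptor for immunoglobulin G, had FPKM of 13.5, 17.6 and 22.7 in PBS and 47.0, 42.5 and 24.4 in nonresponsive tumors. Fcgr4 was at 51.5, 75.1 and 92.7 in PBS against 138, 127 and 97.9 in nonresponsive tumors. In both, every nonresponsive tumor exceeded every PBS tumor, tumor 3 by little. Fcgr1 rose by 1.02 ± 0.32 (call lost without PBS tumor 1 or nonresponsive tumor 1 or 2) and Fcgr4 by 0.74 ± 0.28 (call lost without PBS tumor 1 or 2 or nonresponsive tumor 1 or 2). Gas6, a bridge between dying cells and phagocyte receptors, was at 15.8, 37.1 and 28.3 in PBS against 104, 105 and 36.9 in nonresponsive tumors, with overlap, and rose by 1.50 ± 0.51 (call lost without PBS tumor 1 or 3 or nonresponsive tumor 1 or 2). These were the 3 loci of 23 that rose in the Fc receptor and phagocytosis list, against 1.57% of all loci tested, where 0 fell and the median was 0.76. The number was 7 without nonresponsive tumor 3, 4 without PBS tumor 2, 2 without PBS tumor 3 and 0 without PBS tumor 1 or nonresponsive tumor 1 or 2. The inhibitory and low-affinity receptors Fcgr2b and Fcgr3, joined in 1 locus, differed by 0.63 ± 0.43 (adjusted p = 0.700), and Axl, a receptor for Gas6, by -0.40 ± 0.35 (adjusted p = 0.700).

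Other myeloid surface genes and a chemokine rose as well. Ccl8, a chemokine of macrophages, had FPKM of 139.6, 217 and 133 in PBS against 228, 549.9 and 314 in nonresponsive tumors and rose by 1.09 ± 0.39 (call lost without PBS tumor 1 or 3 or nonresponsive tumor 2 or 3). C3ar1, the receptor for complement fragment C3a, was at 11.2, 13.1 and 15.0 in PBS against 35.2, 47.0 and 16.6 in nonresponsive tumors and rose by 1.16 ± 0.39 (call lost without PBS tumor 1 or 2 or nonresponsive tumor 1 or 2). Fcrls, a scavenger-like Fc receptor family member, was at 1.50, 0.812 and 1.61 in PBS against 4.33, 14.0 and 4.67 in nonresponsive tumors, the highest value being that of nonresponsive tumor 2. Fcrls rose by 1.75 ± 0.45 and kept its call without any 1 tumor. Siglec1, the sialic acid receptor of tissue macrophages, was at 4.65, 3.85 and 4.84 in PBS against 7.89, 12.7 and 6.72 in nonresponsive tumors, without overlap, and rose by 0.85 ± 0.26 (call lost without PBS tumor 2). Of 24 myeloid surface receptor loci tested 9 rose, where 1.57% of all loci tested rose, and 0 fell, again in a family chosen after these values were known. They included Clec12a, Fcna, Lrrc25, Gpr34, Ly86 and the joined Clec4a and Clec4b locus, each of which lost its call without PBS tumor 1 or nonresponsive tumor 2. Without any 1 tumor the number that rose ran from 2 (PBS tumor 1 or nonresponsive tumor 2 left out) to 16 (nonresponsive tumor 3 left out).

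Polarization markers gave few calls, in both directions. Of 15 M1-like loci 1 rose (Fcgr1), and of 21 M2-like and lipid-associated loci 2 rose (Chil3 and Stab1) and 1 fell (Ccl22). Over all loci tested, 1.57% rose and 1.66% fell. The medians of these 2 lists were 0.57 and 0.42, with 13 and 13 loci higher at any p, against 44.4% of all loci tested. Without nonresponsive tumor 3, 7 loci of the M2-like list rose and 0 fell (median 0.79). Chil3, the chitinase-like protein Ym1, had FPKM of 2.37, 4.13 and 14.2 in PBS and 39.5, 28.3 and 12.3 in nonresponsive tumors. It rose by 1.97 ± 0.67 (call lost without PBS tumor 1 or 2 or nonresponsive tumor 1 or 2), although nonresponsive tumor 3 overlapped with PBS tumor 3. Stab1, a scavenger receptor of macrophages and sinusoidal endothelium, was at 7.83, 16.0 and 10.2 in PBS against 43.9, 32.5 and 14.7 in nonresponsive tumors, also with overlap, and rose by 1.27 ± 0.45 (call lost without PBS tumor 1 or 3 or nonresponsive tumor 1 or 2). Cd80 was at 0, 9.97 and 10.9 in PBS against 15.4, 8.22 and 4.58 in nonresponsive tumors and Cd86, joined with Gm49662, at 5.73, 14.2 and 12.7 in PBS against 20.7, 17.4 and 12 in nonresponsive tumors. These costimulatory ligands overlapped between groups (adjusted p = 0.724 and 0.700). The M2-like marker Mrc1, which encodes CD206, was at 12.1, 20.5 and 14.9 in PBS against 22.5, 47.4 and 19.2 in nonresponsive tumors, highest in nonresponsive tumor 2 and otherwise close to the PBS values (adjusted p = 0.700). The inflammatory cytokines Il1b and Tnf differed by 0.71 and 0.39 (adjusted p = 0.808 and 0.869), and Arg1, the arginine-degrading enzyme of suppressive macrophages, by 0.97 (adjusted p = 0.700). Abundant lipid-associated loci were those of Apoe, joined with Tomm40 (0.30, adjusted p = 0.750), and of Spp1, joined with Gm42793 (-0.60, adjusted p = 0.700).

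Neutrophil, monocyte and dendritic cell genes added few calls. Of 20 neutrophil loci 0 passed, with 19 higher at any p, against 44.4% of all loci tested, and a median of 0.84. S100a9, the alarmin of neutrophils, had FPKM of 83.8, 1160.1 and 1140.5 in PBS and 2759.9, 1046 and 254 in nonresponsive tumors, spread widely within each group (adjusted p = 0.765). The joined loci of S100a8 and of Lcn2 gave 0.29 and 1.46 (adjusted p = 0.770 and 0.700). In the monocyte and myeloid chemokine list Ccl8 rose and Csf2 fell, and the median over its tested loci was 0.47. Plac8, a gene of inflammatory monocytes, did not overlap between groups, with 221, 328 and 366 in PBS against 415, 454 and 397 in nonresponsive tumors, and missed the threshold (adjusted p = 0.700). The integrin Itgam, which encodes CD11b in a joined locus, was at 15.5, 44.7 and 42.0 in PBS against 109.9, 91.3 and 34.5 in nonresponsive tumors (adjusted p = 0.700). The joined Ly6c and Ly6g loci differed by 0.19 and 0.18 (adjusted p = 0.747 and 0.905), and the chemokine locus of Ccl6 and Ccl9 by 0.08 (adjusted p = 0.952). Of 16 dendritic cell loci 0 passed (median 0.24). Among them Bst2, Ccl21a and Fscn1 differed by 0.05, 0.40 and 0.27 (adjusted p = 0.931, 0.751 and 0.773). The early activation marker Cd69 was at 2.65, 5.10 and 4.46 in PBS against 6.24, 4.60 and 3.73 in nonresponsive tumors (adjusted p = 0.742). Foxp3, the regulatory T cell factor (joined with Flicr), was too low to test, with 0, 2.54 and 0 in PBS against 0, 1.83 and 0 in nonresponsive tumors.

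Of the vascular endothelial genes, Selp, Sele and Ackr1 rose. Selp and Sele encode P-selectin and E-selectin, which capture leukocytes on activated vessels, and Ackr1 encodes a chemokine-binding receptor of venules. Selp had FPKM of 2.08, 4.20 and 7.15 in PBS and 20.7, 25.0 and 7.25 in nonresponsive tumors. Sele was at 0.687, 0.801 and 1.54 in PBS against 4.04, 4.60 and 1.86 in nonresponsive tumors, and Ackr1, joined with Cadm3, at 2.26, 5.20 and 4.97 in PBS against 13.4, 18.9 and 6.71 in nonresponsive tumors. In all 3 the lowest nonresponsive tumor, tumor 3, was just above the highest PBS tumor. Selp rose by 1.72 ± 0.55 (call lost without PBS tumor 1 or nonresponsive tumor 1 or 2), Sele by 1.13 ± 0.34 (call lost without nonresponsive tumor 2) and Ackr1 by 1.40 ± 0.44 (call lost without nonresponsive tumor 2). These were 3 of 19 vascular endothelial loci, where 1.57% of all loci tested rose, and 0 fell (median 0.45). Without nonresponsive tumor 3, 6 rose, and without nonresponsive tumor 2, 0. Pecam1, present on all endothelium, was at 23.9, 43.5 and 34.6 in PBS against 57.0, 62.7 and 28.8 in nonresponsive tumors, with overlap (adjusted p = 0.700). Plvap, a protein of fenestrated vessels, was at 30.9, 66.0 and 62.4 in PBS against 136, 87.7 and 72.4 in nonresponsive tumors, without overlap, and missed the threshold (adjusted p = 0.700). Vcam1 and the joined locus of Icam1 and Icam4, inducible adhesion molecules of the same vessels, differed by 0.22 and -0.06 (adjusted p = 0.770 and 0.932). Of 12 sinusoidal endothelial loci 1 rose (Stab1, also a macrophage gene), with a median of 0.66.

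**Figure D4:**
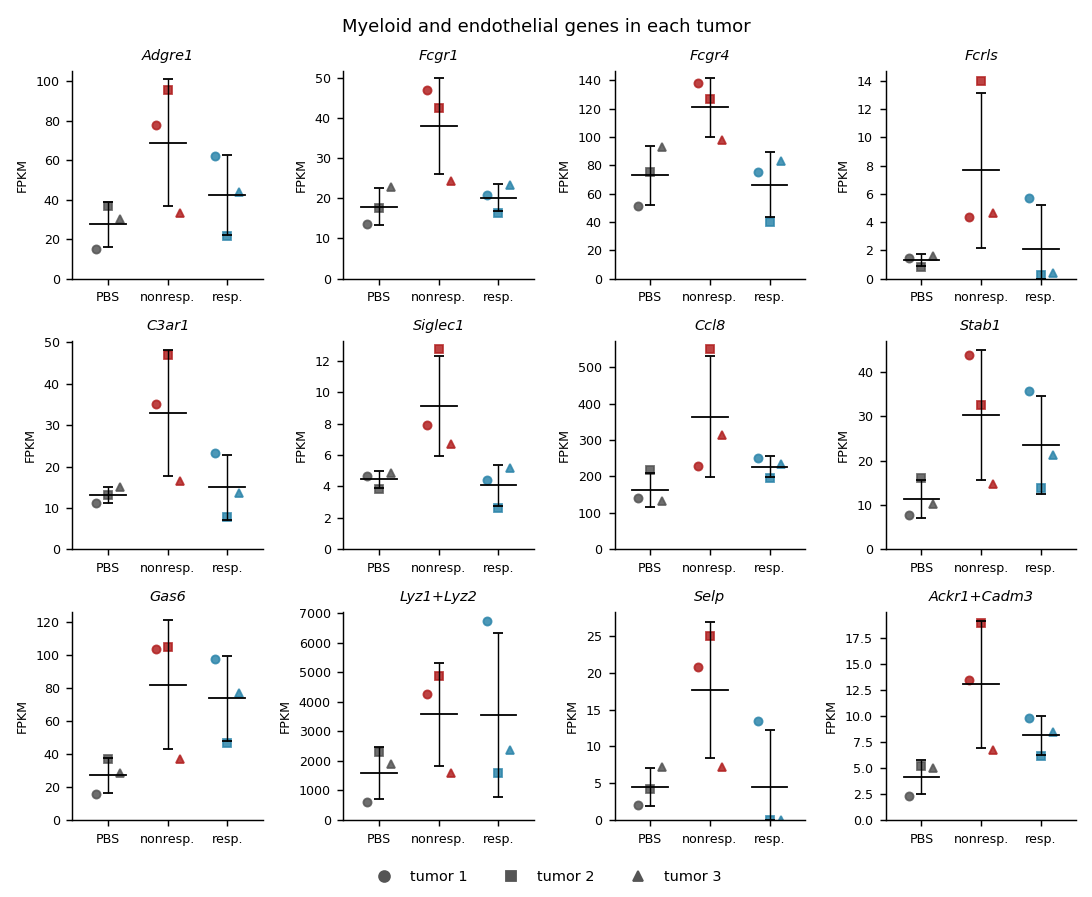
FPKM of 12 myeloid and endothelial loci on linear axes, 1 panel a locus, in the PBS, nonresponsive and responsive tumors. Points are single tumors (circle 1, square 2, triangle 3), wide lines the group means and error bars the SD (n = 3, lower bars stop at 0). In most panels nonresponsive tumors 1 and 2 lie above the PBS tumors and tumor 3 lies within or just above their range. All 3 lie above every PBS tumor for Fcgr1, Fcgr4, Fcrls, C3ar1, Siglec1, Ccl8, Selp and Ackr1.

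Liver genes had the largest list medians and no call. All 29 hepatocyte loci were higher at any p, against 44.4% of all loci tested, with a median of 1.45, and 0 passed. Alb, the albumin gene, had FPKM of 173, 835 and 1259 in PBS and 2678, 1490.0 and 885 in nonresponsive tumors, so that PBS tumor 1 was far below the rest and PBS tumors 2 and 3 were near nonresponsive tumors 2 and 3. The mean log2 value over the list was 3.71, 6.09 and 6.59 in PBS tumors, 7.75, 6.72 and 5.93 in nonresponsive tumors and 8.73, 7.59 and 8.0 in the responsive ones. The coagulation, acute phase, Kupffer cell and complement lists, all with genes made in normal liver, were likewise lowest in PBS tumor 1 and highest in nonresponsive tumor 1 among the 6. Their medians were 1.39, 1.44, 1.21 and 1.04. The first 3 gave 0 calls each. In the complement list 2 of 25 rose, where 1.57% of all loci tested rose. These 2 were C3ar1 and the properdin locus of Cfp, Elk1 and Uxt. The properdin locus was at 42.1, 92.7 and 83.7 in PBS against 169, 176 and 97.5 in nonresponsive tumors, without overlap (1.04 ± 0.39, call lost without PBS tumor 1 or 3 or nonresponsive tumor 1 or 2). Cytochrome P450 and conjugation enzymes gave 0 of 28, with a median of 1.26 and Cyp2e1 at 23.7, 319 and 273 in PBS against 678, 389.7 and 168 in nonresponsive tumors (adjusted p = 0.700). As examples, Hp of the acute phase list differed by 1.58 ± 1.06 (adjusted p = 0.700), Fgb of coagulation by 1.88 ± 1.05 (adjusted p = 0.700), and Cd5l of Kupffer cells by 1.78 ± 1.06 (adjusted p = 0.700). How much normal liver each sample held was not tested.

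Metabolic and stress lists gave few calls. In oxidative phosphorylation 1 of 18 rose, where 1.57% of all loci tested rose, and the list median was -0.03. It was Cyc1 of respiratory complex III, at 48.3, 51.3 and 60.1 in PBS against 65.8, 78.9 and 74.7 in nonresponsive tumors (0.45 ± 0.17, call lost without PBS tumor 1, 2 or 3 or nonresponsive tumor 2 or 3). The lists of hypoxia and glycolysis, fatty acid oxidation, and unfolded protein and stress response gave 0 calls each in 21, 18 and 19 loci, with medians of -0.05, 0.36 and 0.15. The glycolytic loci of Ldha and Pkm and the gene Aldoa differed by -0.08, -0.07 and -0.46 (adjusted p = 0.891, 0.908 and 0.700).

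**Figure D5:**
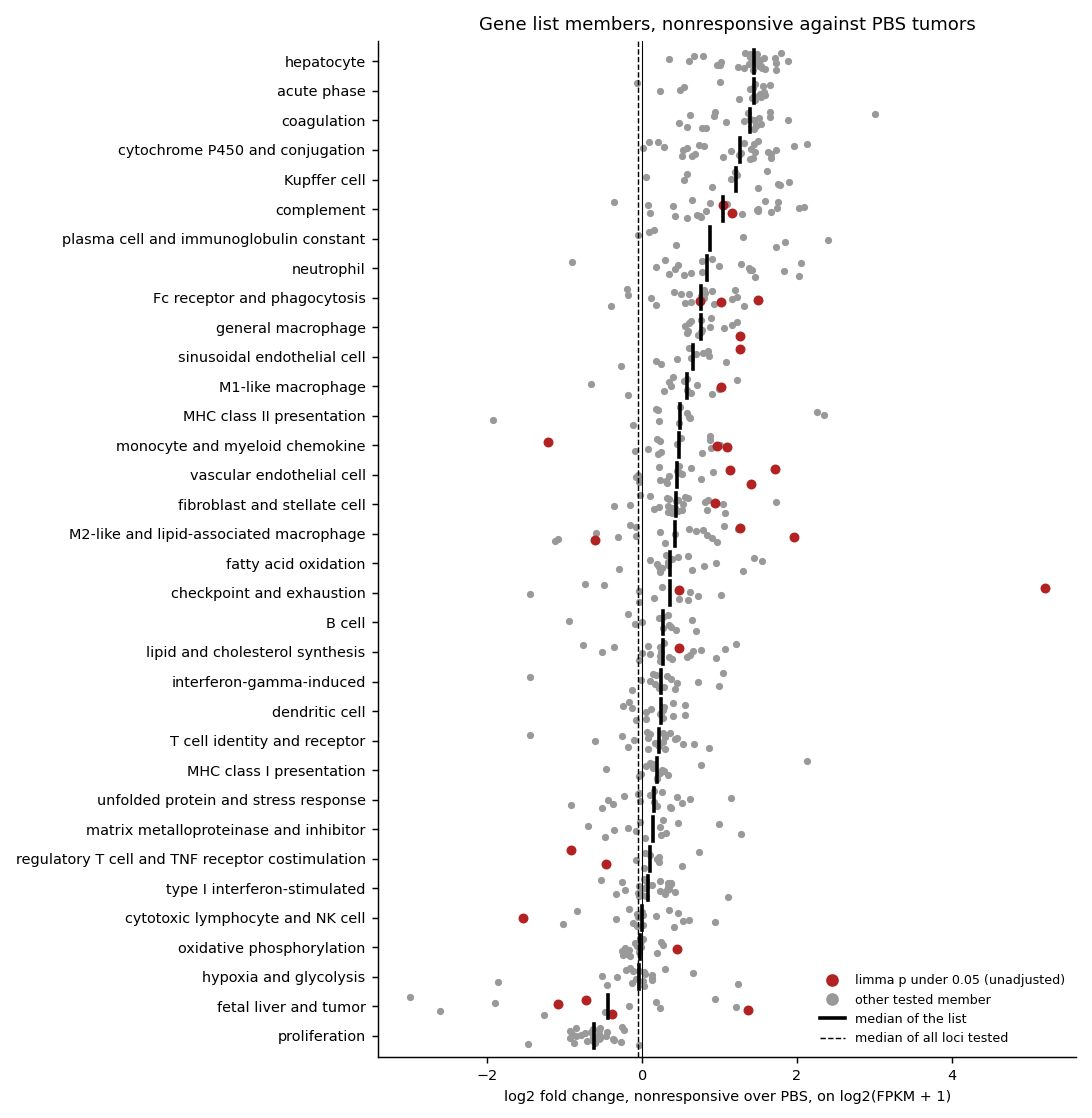
Log2 difference of nonresponsive over PBS tumors, on log2(FPKM + 1), for every tested member of 34 gene lists, ordered by list median. Red points have an unadjusted limma p under 0.05, gray points do not, thick bars mark list medians and the dashed line the median of all loci tested (-0.056). The hepatocyte list has the highest median with no red point, the proliferation list the lowest, and the far right point is Nectin2, listed at 0 in every PBS tumor.

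Loci listed at 0 in a whole group gave the only adjusted calls. Jmjd6, which encodes an arginine demethylase and lysyl hydroxylase, had FPKM of 67.8, 55.1 and 58.7 in PBS tumors and was listed at 0 in all nonresponsive tumors (limma adjusted p = 0.000368). Nectin2, an adhesion molecule and ligand of the immune receptor TIGIT, was listed at 0 in all PBS tumors and at 40.0, 28.6 and 39.9 in nonresponsive tumors (limma adjusted p = 0.000808). Responsive tumors had 0, 65.2 and 0 for Jmjd6 and 31.6, 38.4 and 32.6 for Nectin2. The other 3, Gm10401, Cfap410 (a cilium protein) and Gm20402, had 28.4, 25.2 and 26.1, then 8.19, 7.59 and 9.62, then 6.34, 9.37 and 7.51 in PBS tumors 1 to 3 and were listed at 0 in all nonresponsive tumors (limma adjusted p = 0.000609, 0.00704 and 0.0137). Transcripts were assembled in each tumor separately. Of 9502 loci that reached FPKM 5 in no fewer than 3 of the 6, 369 were listed at 0 in another tumor, so that a listed 0 may be a missing estimate rather than a lost transcript. Tmem200b, a membrane protein gene, was listed at 0 in all PBS tumors and at 11.6, 5.92 and 2.29 in nonresponsive tumors, with an unadjusted limma p under 0.05. Among loci above 0 throughout, Ufm1, a ubiquitin-like modifier, was at 11.2, 12.5 and 11.4 in PBS against 21.1, 96.1 and 57.9 in nonresponsive tumors, without overlap, and rose by 1.98 ± 0.53 (call kept without any 1 tumor). Gm36161 was at 5.88, 20.3 and 15.2 in PBS against 86.3, 73.9 and 38.3 in nonresponsive tumors and rose by 2.25 ± 0.51 (call kept without any 1 tumor). In the skeletal muscle list the 1 call of 6 was the locus of Lsp1 and Tnnt3, where Lsp1 is a leukocyte gene, at 64.8, 90.1 and 65.2 in PBS against 115, 102 and 117 in nonresponsive tumors (0.61 ± 0.20, call lost without PBS tumor 1 or 3 or nonresponsive tumor 3). The pancreatic acinar and erythroid lists had 3 tested loci each and 0 calls.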

How the data were processed

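Whole-tumor RNA was sequenced from TruSeq libraries. The authors deposited, for each tumor, a Cufflinks gene table of FPKM from transcripts assembled in that tumor. The submitters' processing notes name Bowtie2 2.2.4, TopHat2 2.1.1 and mm8. The build of the positions in the tables could not be settled, so none of them is given. Cuffdiff results (authors' fold changes and p-values between groups) were not used. Absolute depth is not given.

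Tumors were matched on gene symbols. Genes that shared an entry in 1 tumor or more were treated as 1 locus, with their FPKM added up (2595 of 48254 loci). Symbols on several chromosomes (19) joined nothing, 7 loci with a failed estimate were left out, and so were entries without a symbol, which held 19.2% to 81.5% of summed FPKM. Loci that reached FPKM 1 in no fewer than 3 of 6 tumors were tested on log2(FPKM + 1), pseudocount 1, with limma 3.58.1 in R 4.3.3 (eBayes with trend) and Benjamini-Hochberg adjustment. Tumors correlated at 0.895 to 0.981, and 0% of values were identical in any pair. Replicate numbers were not used to pair tumors. P-values measure the spread between 3 mice a group. The fit was tested on simulated data.

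Named genes came first from loci past the threshold whose groups did not overlap. Of those above 0 in all 6 tumors, the 10 largest increases and 10 largest decreases were named. Of those at 0 in some tumor, 3 of each were named. Also named were members of 38 gene lists past the threshold, the 3 most abundant of each list described, and genes the study measured. Members and lists were chosen with earlier results of these data known. Another 5 lists (granzymes, Wnt targets, matrix, TNF ligands, myeloid receptors) were added after values were seen. Alternatives were a pseudocount of 0.1, no filter, a filter at FPKM 5, upper-quartile scaling, scaling to the summed FPKM of named genes, a fit of all 9 tumors, a block for the replicate number, and leaving out each tumor. Promoters are from RefSeq (GRCm38.p6). Some genes that the rule selects are not reported here.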

Additional observations from a re-analysis of the deposited data

Results flagged for a closer look

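Loci that were not tested, because they passed FPKM 1 in too few tumors, held a signal of other tissues in single tumors. Pancreatic acinar loci that were not tested summed to 1702.0 FPKM in nonresponsive tumor 2, against at most 0.348 in any PBS tumor, with Ctrb1 at 415, Prss2 at 255 and Cpa1 at 52.6. Skeletal muscle loci that were not tested summed to 134.9 FPKM in nonresponsive tumor 3, against 24.8 in PBS tumor 1, the highest of the PBS tumors. Their part in the results was not tested.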

How the results depend on the processing

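Unadjusted limma calls depended on single tumors. Of 409 loci with p under 0.05, the number was between 193 (nonresponsive tumor 2 left out) and 1981 (nonresponsive tumor 3 left out) with 1 tumor fewer, and 195 without PBS tumor 1 and 225 without nonresponsive tumor 1. The number with adjusted p under 0.05, 5 as reported, was between 3 (PBS tumor 3 or nonresponsive tumor 1 or 2 left out) and 18 (nonresponsive tumor 3 left out), and 9 without PBS tumor 1. Without both PBS tumor 1 and nonresponsive tumor 1, a setting chosen after seeing the data, the numbers were 305 and 8. The cause was not tested. Without a filter on low values, 22756 loci were tested and gave 789 and 3, and a filter at FPKM 5 gave 243 and 3. Both change the number of loci tested. A fit of all 9 tumors gave 419 and 3. Replicate numbers were not used to pair the tumors. Deviations of same-numbered tumors correlated at -0.523, -0.0639 and -0.261, and those of differently numbered tumors at -0.446 to 0.498. With 3 tumors a group, deviations from group means depend on each other, so these values cannot exclude pairing. A fit with the number as a block gave 215 and 0. Of 76 named loci with p under 0.05, 25 kept their call without each tumor and 0 changed direction. Under all settings in which they were tested, 19 kept it. The filter at FPKM 5 tested 56 of the 76. Of 171 named loci without a call, 30 gained one without nonresponsive tumor 3 and at most 6 under each of the other settings. Of the 76, a pseudocount of 0.1 left 70, upper-quartile scaling 75, scaling to the summed FPKM of named genes 72, and the block 43. FPKM hold no read numbers, so no counting error can be given. With 3 tumors a group an exact permutation test cannot go below p = 0.1.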
